A study of Mus musculus with 11 samples.

Results

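Of the 63244 transcript rows in the count table, 4 are described here: *Cdkn1b-202* (uc009ela.2), *Cdkn1b-201* (uc009elb.2), *Cdk20* (uc007qyx.1) and *Trib1* (uc007vxx.1). They are rows of kinase regulators. *Cdkn1b-202*, *Cdk20* and *Trib1* were selected on their difference between sleep deprived and control libraries. That is, their counts were already known to be higher after sleep deprivation in these same samples. *Cdkn1b-201* came in as the other transcript of a gene chosen in this way. For all 4 rows the differences between the groups are therefore given as descriptions. The 4 rows were part of the fit across all rows, but whether a row passed its threshold is no independent evidence for it. All 4 rows were among the 29599 that passed the filter of at least 1 count in at least 5 libraries.

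The libraries hold hippocampal RNA bound to ribosomes, from male CaMKIIα-Cre:RiboTag mice that were 2 to 3 months old. In these mice Cre, driven by the CaMKIIα promoter, switches on a hemagglutinin-tagged form of the ribosomal protein Rpl22 in excitatory neurons, and an antibody to the tag pulls down ribosomes with their mRNA. The sleep deprived group (SD, 6 libraries) was kept awake for 5 h from lights on by gentle handling, and the non-sleep deprived group (NSD, 5 libraries) was collected at the same time of day. Both groups carried the tag and the Cre driver, and each library pooled the hippocampi of 2 mice. The question was whether these mRNAs were more or less abundant on the ribosomes of excitatory neurons after sleep loss.

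*Cdkn1b* encodes p27Kip1, an inhibitor that binds cyclin and cyclin-dependent kinase complexes and holds cells out of the cell cycle. It is also made in neurons that no longer divide. *Cdk20* encodes a cyclin-dependent kinase family member, also called cell cycle-related kinase, that acts in growth control and at the primary cilium. *Trib1* encodes a Tribbles pseudokinase, a protein with a kinase fold and little or no catalytic activity that brings the ubiquitin ligase COP1 to its substrates.

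*Cdkn1b* lies on the plus strand of chromosome 6 (GRCm38/mm10, chr6:134920401-134925513) and has 3 transcripts in GENCODE vM21. *Cdkn1b-201* and *Cdkn1b-202* share the same 591 coding bases, which encode 197 amino acids, with 0 bases that differ. They part in the 3′ untranslated region, 12 bases from the first base of the stop codon. From there *Cdkn1b-202* keeps 2159 bases (chr6:134922084-134924242) that *Cdkn1b-201* splices out. The 15 bases on each side of this point are shown because they are what separates the transcripts, with the bases after the point in capitals and the stop codon taa at the fourth to sixth base.
Cdkn1b-202: acgtaaacagctccgGTGGGTTAATGAGGA
Cdkn1b-201: acgtaaacagctccgAATTAAGAATATTTC
In GENCODE vM21, *Cdkn1b-201* has 0 exonic bases that lie outside *Cdkn1b-202*. Reads that fitted several transcripts were left out of the counts, so under these models a read could be assigned to *Cdkn1b-202* through its 2159 bases but not to *Cdkn1b-201* alone. The deposited row of *Cdkn1b-201* nevertheless held 530 to 985 counts per library. The counted UCSC models or their use therefore differed from GENCODE at this gene, and which bases fed the row was not determined here.

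**Figure D1:**
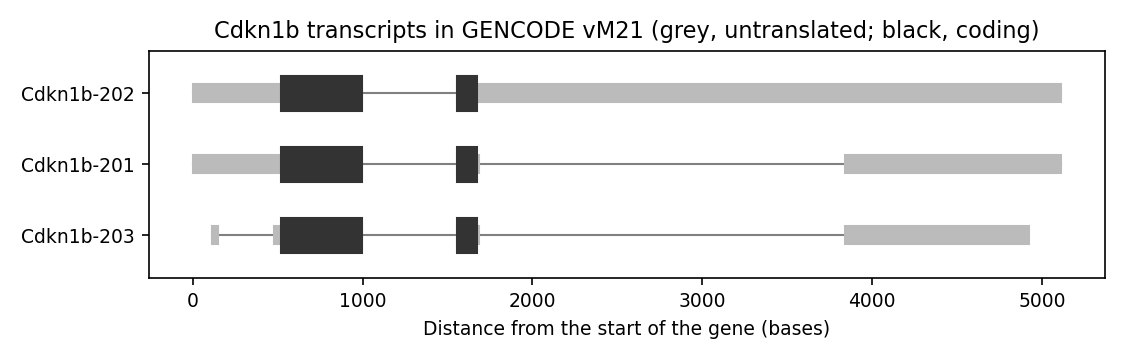
The 3 Cdkn1b transcripts of GENCODE vM21, drawn to scale against the distance in bases from the start of the gene. Thick black boxes are coding sequence, thin grey boxes are untranslated exon and lines are introns. The coding boxes are the same in Cdkn1b-202 and Cdkn1b-201, and the 2159 bases kept by Cdkn1b-202 are an intron in Cdkn1b-201.

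The RefSeq promoter windows (GRCm38.p6, from 250 bases before to 50 bases after a gene's start) held 2 of the 3 genes. The 250 bases before the *Cdkn1b* start (chr6:134920151-134920400, plus strand) are shown because counts of both of its rows were higher in SD, with each CCAAT box in capitals.
Cdkn1b promoter: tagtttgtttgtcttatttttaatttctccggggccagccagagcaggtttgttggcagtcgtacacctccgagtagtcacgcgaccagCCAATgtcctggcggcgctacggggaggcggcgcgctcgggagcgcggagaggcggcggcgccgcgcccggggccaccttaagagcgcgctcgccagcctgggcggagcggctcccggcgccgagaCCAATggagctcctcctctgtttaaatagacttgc
The whole window held 3 matches to CCAAT, whose first bases lie 161 and 35 bases before the start and 45 bases after it. A match to CCAAT on either strand was present in 37.4% of the 32851 windows. For *Cdk20* the window held 2 matches to the E-box CACGTG, 186 and 61 bases before its RefSeq start, against at least 1 match in 7.15% of windows. The 30 bases around each are shown with the E-box in capitals, from chr13:64432355-64432384 and chr13:64432480-64432509 on the plus strand.
Cdk20 E-box 1: agcgtttcttgtCACGTGgtgctatggcca
Cdk20 E-box 2: ggtctttccggtCACGTGctttacggagca
Of the 300 bases of this *Cdk20* window, 289 fall within exons of longer *Cdk20* transcripts in GENCODE vM21. Neither window held the forkhead letters GTAAACA (3.65% of windows) or the cAMP response element TGACGTCA (1.79%). Both strands were searched, no match overlapped one to another motif, and the motifs were picked with the sequences in view. A match describes letters only.

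The libraries held 22074914 to 29549339 reads counted on transcripts. Reads outside annotated transcripts made up 9.97% to 27.6% of all reads, with the highest shares in NSD 2 (27.6%) and SD 1 (21.1%), so the log2 fold changes of the 4 rows, the share of the *Cdkn1b* rows and the co-variation of the 4 rows are also given without these 2 libraries. Levels are in CPM, counts scaled to a common library size with upper-quartile factors, and ± is the standard deviation over libraries. Because the libraries were not taken from counted cells, a change in the number of tagged cells and a change in RNA per cell cannot be told apart. All 11 libraries hold RNA pulled down with ribosomes. More of an mRNA in the cell and more of it bound to ribosomes therefore cannot be told apart either. Of the 6 markers of the expected cell type, excitatory neurons, 2 had named rows. *Neurod2* was at 336 ± 37.7 CPM (n = 5) in NSD and 385 ± 63.1 CPM (n = 6) in SD. The named row of *Camk2a* was at 2.51 ± 0.167 CPM (n = 5) in NSD and 1.89 ± 0.34 CPM (n = 6) in SD. The *Neurod2* groups overlapped. For this *Camk2a* row all SD libraries lay below all NSD libraries, but only just, with 2.315 CPM as the highest SD value and 2.317 CPM as the lowest NSD value. Its log2 fold change was -0.41 with a standard error of 0.17, and it did not pass the threshold of the fit across all rows. How common such a separation is among all rows, with SD below NSD, is not given here, so nothing is read from it.

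*Cdkn1b-202* was 1.54 times as high in SD as in NSD, *Cdk20* 1.51 times and *Trib1* 1.52 times, by the means of the groups. In NSD its level was 23.0 CPM in NSD 2, 26.6 in NSD 3, 24.8 in NSD 4, 28.4 in NSD 5 and 24.4 in NSD B, from 555 to 677 counts. In SD it ran from 27.8 through a median of 41.0 to 45.1 CPM, from 819 to 1168 counts. The lowest SD value was that of SD 1, just under the highest NSD value, and the other 5 SD libraries lay above every NSD library. The mean was 25.4 ± 2.09 CPM (n = 5) in NSD and 39.1 ± 6.13 CPM (n = 6) in SD, a log2 fold change of 0.62 with a standard error of 0.11.

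*Cdkn1b-201* differed less between the groups. In NSD it was at 21.9 CPM in NSD 2, 29.3 in NSD 3, 25.8 in NSD 4, 27.4 in NSD 5 and 26.9 in NSD B. In SD it ran from 23.6 through a median of 32.8 to 35.6 CPM. SD 1 and SD 3 lay within the NSD range, and the other 4 SD libraries lay above it. Its mean was 26.3 ± 2.73 CPM (n = 5) in NSD and 31.4 ± 4.61 CPM (n = 6) in SD, a log2 fold change of 0.26 with a standard error of 0.11.

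*Cdk20* was the row whose groups did not overlap. It was at 9.27 CPM in NSD 2, 10.03 in NSD 3, 10.98 in NSD 4, 12.2 in NSD 5 and 10.3 in NSD B, and ran from 14.1 through a median of 16.0 to 17.6 CPM in SD. The lowest SD library, SD 1, lay 1.91 CPM above the highest NSD library, NSD 5. The counts behind these levels were 224 to 291 in NSD and 372 to 489 in SD. The mean was 10.5 ± 1.10 CPM (n = 5) in NSD and 15.9 ± 1.65 CPM (n = 6) in SD, a log2 fold change of 0.59 with a standard error of 0.11. *Cdk20* lies on chromosome 13 (chr13:64432314-64441773, plus strand) with 9 transcripts in GENCODE vM21, and 49 of its exonic bases overlap *1700015C15Rik* on the other strand. The sources used here do not give the strand setting of the counting, so reads from these bases may come from either gene.

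*Trib1* had the fewest counts and, on the log2 scale, the widest spread within groups, with a residual standard deviation of 0.32 against 0.15 to 0.20 for the other rows. It was at 8.52 CPM in NSD 2, 8.12 in NSD 3, 7.72 in NSD 4, 11.3 in NSD 5 and 7.04 in NSD B, and ran from 7.81 in SD 1 through a median of 13.5 to 16.4 CPM in SD 2. SD 1 lay inside the NSD range and the other 5 SD libraries above it. Its counts were 169 to 269 in NSD and 230 to 389 in SD. The mean was 8.54 ± 1.62 CPM (n = 5) in NSD and 12.9 ± 2.83 CPM (n = 6) in SD, a log2 fold change of 0.60 with a standard error of 0.16. *Trib1* lies on chromosome 15 (chr15:59648350-59657099, plus strand) and has 2 transcripts in GENCODE vM21.

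**Figure D2:**
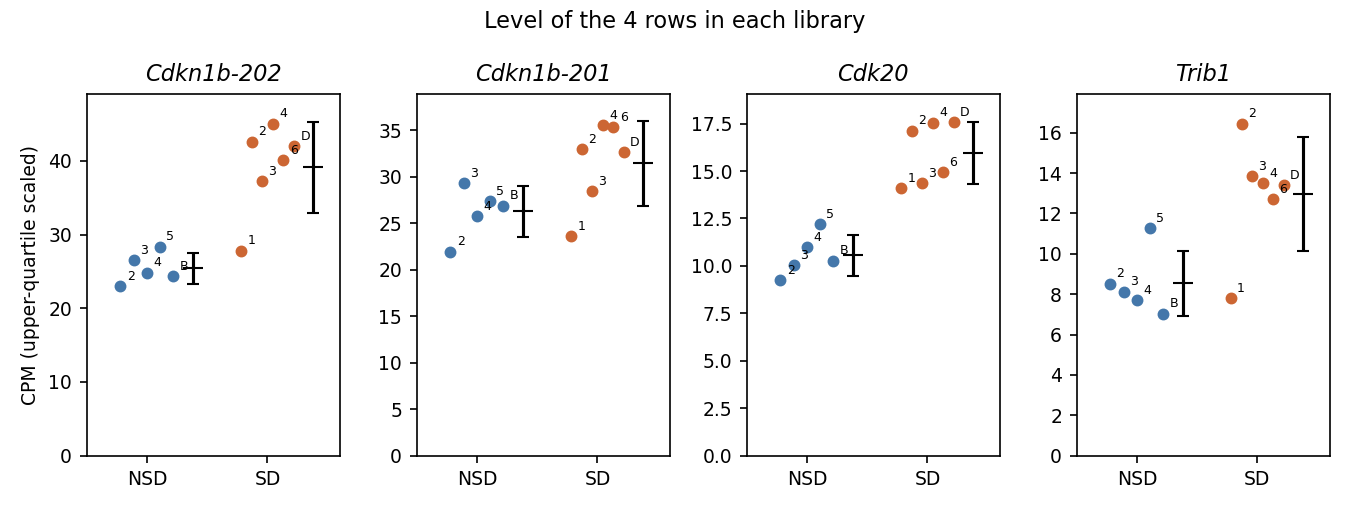
Level in CPM (y axis, from 0) of the 4 rows in each NSD library (blue) and SD library (orange), labelled by the library's number or letter. Bars show the mean and standard deviation. The Cdk20 groups are 1.91 CPM apart, and SD 1 is the lowest SD library in each panel.

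SD 1 was the lowest SD library in all 4 rows. Without SD 1 and NSD 2, the log2 fold changes were 0.65 for *Cdkn1b-202*, 0.26 for *Cdkn1b-201*, 0.57 for *Cdk20* and 0.70 for *Trib1*. Across the 29599 rows the median log2 fold change was 0.01 and its median size 0.16. Of these rows, 5.49% had a higher log2 fold change than *Cdkn1b-202*, 5.70% a higher one than *Cdk20*, 5.66% a higher one than *Trib1* and 16.6% a higher one than *Cdkn1b-201*. By edgeR's quasi-likelihood test at an FDR of 0.05, 13 rows (0.0439%) were called higher in SD and 2 (0.00676%) lower. *Cdkn1b-202* and *Cdk20* were among the 13. As the rows were chosen for that contrast, nothing is read from this count, and 0 of the 4 rows were called in 12 of 21 alternatives, 9 of the 11 that left out 1 library among them. The SD libraries lay wholly above the NSD libraries in 136 rows (0.459%), of which *Cdk20* was 1. Other named rows of the gene lists below with this lack of overlap were *Cdk2ap2*, *Ick* and the more abundant *Spred1* row.

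The rows of *Cdkn1b* were then compared with each other inside each library, where scaling between libraries cancels. Of the counts on both rows, *Cdkn1b-202* held 51.2% in NSD 2, 47.6% in NSD 3, 49.0% in NSD 4, 50.9% in NSD 5 and 47.5% in NSD B. It held 54.1% in SD 1, 56.4% in SD 2, 56.7% in SD 3, 55.9% in SD 4, 53.2% in SD 6 and 56.2% in SD D. All 6 SD libraries, SD 1 included, lay above all 5 NSD libraries. The mean share was 49.2 ± 1.74% (n = 5) in NSD and 55.4 ± 1.43% (n = 6) in SD, a difference of 6.18 percentage points. It was 6.92 points without SD 1 and NSD 2. *Cdkn1b-202* was chosen for being higher in SD and *Cdkn1b-201* as its partner, which favours a higher share in SD. The share was therefore not tested.

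On the log2 scale the ratio of *Cdkn1b-202* to *Cdkn1b-201* went from a mean of -0.04 in NSD to 0.31 in SD. The summed level of both rows was 51.7 ± 4.51 CPM (n = 5) in NSD and 70.6 ± 10.6 CPM (n = 6) in SD, with SD 1 inside the NSD range. Of the gain in the mean of this sum, 72.6% was on *Cdkn1b-202*, with 13.7 CPM, and the rest on *Cdkn1b-201*, with 5.16 CPM. The share is one of counts and not of molecules, because the bases that could feed each row are not known and their lengths may differ. Whether that limit affects both groups alike was not tested.

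**Figure D3:**
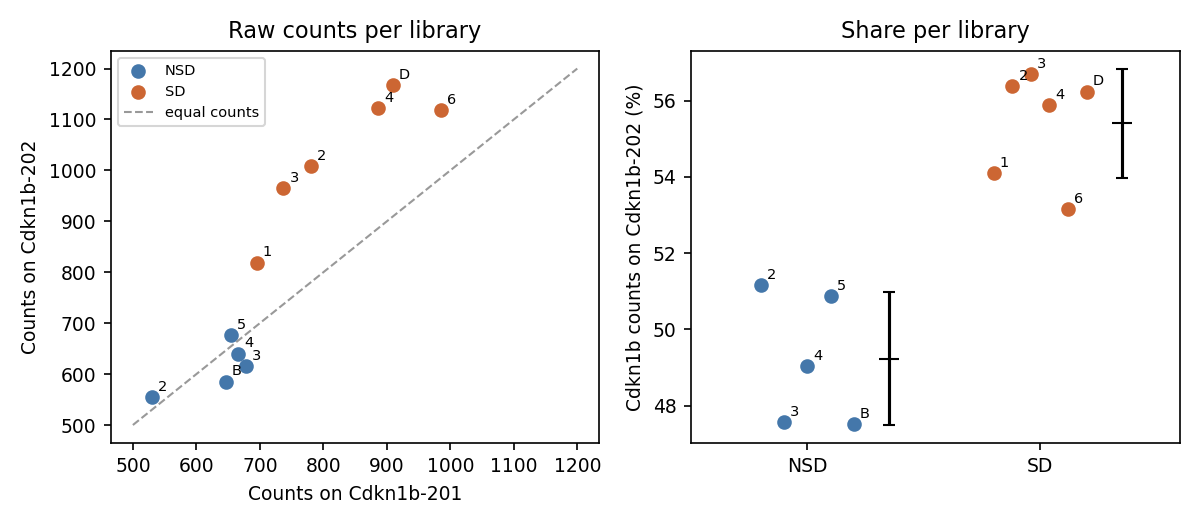
Left, raw counts on Cdkn1b-202 (y axis) against Cdkn1b-201 (x axis) in each library, with a dashed line where they are equal. Right, the percentage of Cdkn1b counts on Cdkn1b-202 by group, on an axis that does not start at 0, with the mean and standard deviation. The 6 SD libraries lie at 53.2% or more and the 5 NSD libraries at 51.2% or less.

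To see whether the rows moved together apart from the difference between the groups, each library's log2 CPM was taken as a deviation from its group's mean. *Cdkn1b-202* and *Cdkn1b-201* varied together across the 11 libraries, with Pearson's r of 0.90 (n = 11, two-sided exact permutation p = 0.00142, adjusted p = 0.00427 over the 6 pairs) and Spearman's rho of 0.80 (exact permutation p = 0.00826, adjusted p = 0.0248). Without SD 1 and NSD 2, the farthest libraries, r was 0.66, and with the group means taken again over the 9 libraries left it was 0.67 and no longer passed the threshold (exact permutation p = 0.0705). It was 0.91 in the 9 libraries with numbered labels and 0.94 in the 6 SD libraries. From library totals with no upper-quartile factors, r was 0.52 and did not pass the threshold (exact permutation p = 0.110).

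*Cdkn1b-202* and *Cdk20* also varied together, with r of 0.75 (n = 11, exact permutation p = 0.000845, adjusted p = 0.00427) and rho of 0.85 (exact permutation p = 0.00275, adjusted p = 0.0165). Without the farthest 2 libraries r was 0.74, and it was 0.74 in the numbered libraries and 0.80 in the SD libraries. The relation did not pass the threshold with TMM factors (r = 0.51, exact permutation p = 0.0867) or with no factors (r = 0.28, exact permutation p = 0.395). *Cdkn1b-202* and *Trib1* had r of 0.84 (n = 11, exact permutation p = 0.0178, adjusted p = 0.0355) and rho of 0.69 (exact permutation p = 0.0328, adjusted p = 0.0655). This relation rested on SD 1, without which r was 0.50 (exact permutation p = 0.193). Without the farthest 2, r was 0.64, or 0.60 with the group means taken again (exact permutation p = 0.109). Without NSD 5, r was 0.83 (exact permutation p = 0.0758). It was 0.85 in the numbered libraries (exact permutation p = 0.0288) and 0.89 in the SD libraries (exact permutation p = 0.0653).

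The pairs without *Cdkn1b-202* did not pass the threshold by either measure over all 11 libraries. *Cdkn1b-201* and *Cdk20* had r of 0.62 (exact permutation p = 0.0568, adjusted p = 0.0682) and rho of 0.54 (exact permutation p = 0.106, adjusted p = 0.159), and r was 0.25 without SD 1 and NSD 2. For *Cdk20* and *Trib1*, r was 0.60 (exact permutation p = 0.0524, adjusted p = 0.0682) and rho 0.50 (exact permutation p = 0.136, adjusted p = 0.163), with 0.46 when NSD 5 and SD D, the farthest, were left out and 0.57 without SD 1 and NSD 2 (exact permutation p = 0.149). Before adjustment, *Cdkn1b-201* and *Cdk20* passed without NSD 3 (r = 0.72, exact permutation p = 0.0238) and without SD 6 (r = 0.75, exact permutation p = 0.0206). *Cdk20* and *Trib1* did so without NSD 2 (r = 0.68, exact permutation p = 0.0256) and without SD 3 (r = 0.70, exact permutation p = 0.0262). The values for *Cdkn1b-201* and *Trib1* were 0.56 (exact permutation p = 0.125, adjusted p = 0.125) and 0.32 (exact permutation p = 0.430, adjusted p = 0.430), and r was 0.01 without SD 1 and NSD 2. In the numbered libraries these 3 pairs had r of 0.63, 0.61 and 0.61, in that order, and in the SD libraries 0.70, 0.61 and 0.77.

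Many rows of the table varied with these 4 within groups. Over 14535 rows with a mean of at least 1 CPM, the median r with *Cdkn1b-202* was 0.55, and 92.8% of rows had a lower r with it than *Cdkn1b-201* had. For *Cdk20* that percentage was 66.8 and for *Trib1* 79.0. Counted from the other row of the pair, 91.3% of rows had a lower r with *Cdkn1b-201* than *Cdkn1b-202* had, 97.1% a lower r with *Cdk20* and 99.1% a lower r with *Trib1*. The median r was 0.57 with *Cdkn1b-201*, 0.38 with *Cdk20* and 0.42 with *Trib1*. The deviations of the 4 rows also followed the share of reads outside annotated transcripts, with r of -0.76 for *Cdkn1b-202*, -0.89 for *Cdkn1b-201*, -0.67 for *Cdk20* and -0.47 for *Trib1* (n = 11). With the upper-quartile factor itself r was -0.90 for both *Cdkn1b* rows, -0.66 for *Cdk20* and -0.69 for *Trib1*. When CPM was taken from library totals with no factors, r of the *Cdkn1b* pair was 0.52 (exact permutation p = 0.110), while that of *Cdkn1b-202* and *Trib1* was 0.71 (exact permutation p = 0.0284). The part of scaling and of library quality in the co-variation was not tested. The deviation of the *Cdkn1b-202* share, by comparison, had r of 0.26 with the share of reads outside transcripts.

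**Figure D4:**
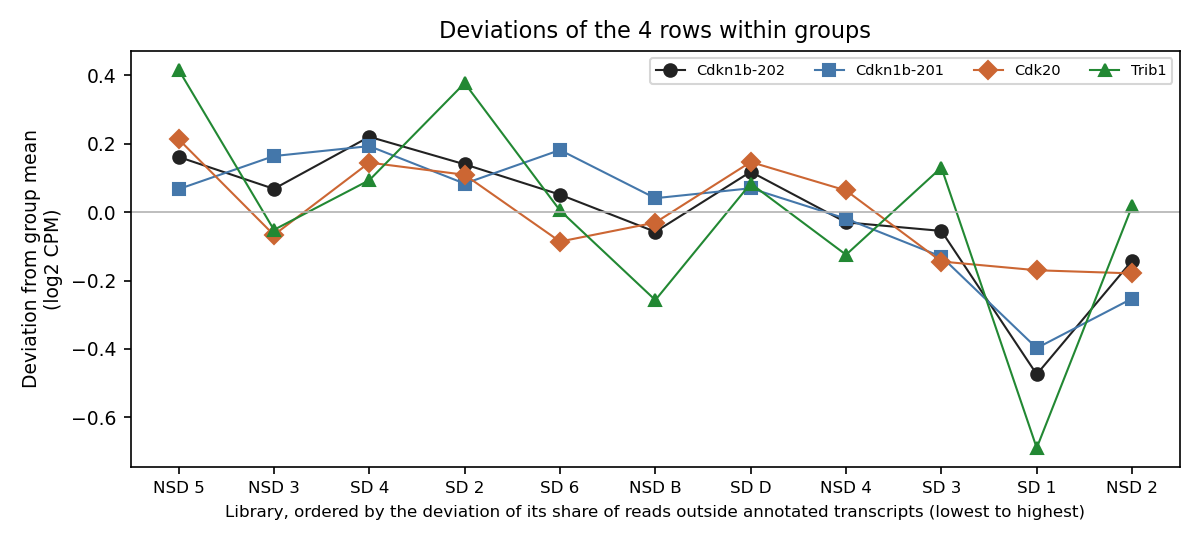
Deviation of each row's log2 CPM from its group's mean (y axis) in the 11 libraries. Libraries are ordered along the x axis by the deviation of their share of reads outside annotated transcripts, from lowest to highest. SD 1 lies lowest for both Cdkn1b rows and for Trib1, and NSD 2 lies below 0 for all rows but Trib1.

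Among the named rows of other genes, those most like *Cdkn1b-202* within groups were *Xbp1* (r = 0.97), a transcription factor of the unfolded protein response, *Snap29* (0.97), a membrane fusion protein, and *Mcl1* (0.96), a survival protein of the Bcl2 family. Most like *Cdkn1b-201* were *Commd9* (0.98), *Cdk5* (0.97), a kinase of neurons, and *B4galt5* (0.97), a galactosyltransferase. For *Cdk20* they were *Hes1* (0.91), a Notch target, *Cic* (0.90), a transcriptional repressor, and *Sftpc* (0.90), a surfactant protein. For *Trib1* they were *Rpl34* (0.95), a ribosomal protein, *Arc* (0.95), an immediate early gene of synapses, and *Txnrd3* (0.91), a thioredoxin reductase. These were the highest of 1891 named rows for each *Cdkn1b* row, and of 1892 for *Cdk20* and *Trib1*, over 11 libraries.

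Few other genes of these pathways could be followed, because most rows of the table carry no name here. Of 131 genes in 8 lists, 27 (20.6%) had a named row, and most of those names were found through the same comparison, which favours rows that differed. The 29 named rows held 2 that were called higher in SD, *Cdkn1b-202* and *Cdk20* themselves, and 0 called lower. Values for the other rows are therefore given as descriptions.

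Among inhibitors of the Cip/Kip and INK4 families, 1 of 8 genes was named, *Cdkn1b* itself. The 3 named of 25 cyclin genes had log2 fold changes of 0.13 for *Ccnd1*, a G1 cyclin, 0.38 for *Ccnjl* and 0.18 for *Ccny*. Of 25 genes of cyclin-dependent kinases and their partners, the others named were *Cdk5* at 0.06 and *Cdk2ap2*, a partner of Cdk2, at 0.47. Of 15 genes of p27 turnover, *Rbx1*, a ubiquitin ligase subunit, was at 0.15 and *Fbxw7*, an F-box protein, at -0.11. Of 10 Foxo and Akt pathway genes upstream of *Cdkn1b*, *Foxo1* was at -0.20 and *Foxo4* at 0.38.

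Of 9 genes of ciliary kinases related to *Cdk20* and of hedgehog signalling, *Ick*, a ciliary kinase, was at 0.70 and *Gli1*, a hedgehog target, at -0.70. Their mean levels in either group were at most 1.16 CPM. Of 12 Tribbles genes and partners, *Trib2* was at 0.26 and *Det1*, a partner of COP1, at 0.22. Of 27 other protein kinase inhibitor genes, 10 were named, with 9 of 11 rows above 0 and a median of 0.26. The more abundant *Spred1* row, of a gene that restrains Ras signalling, was at 0.41, *Dnajc3*, an inhibitor of eIF2α kinases, at 0.34, and *Gadd45a*, *Gadd45b* and *Gadd45g* were at 0.34, 0.37 and 0.26. Below 0 were *Spry2* at -0.13 and *Pkig* at -0.38. The *Pkig* value has a standard error of 0.30, from mean levels of only 0.69 CPM in NSD and 0.53 CPM in SD. None of the rows in this paragraph was called.

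Markers of other cell types were set beside the 4 rows. Of the 7 inhibitory neuron markers, 3 had named rows, and all 5 of these rows were lower in SD, with the most abundant *Gad2* row at -1.39 and *Slc32a1* at -1.65 on the log2 scale and none called. Their summed level was 64.6 to 179 CPM in NSD and 52.7 to 109 CPM in SD, ranges that overlap, and 0 of the 5 rows were at 0 in any library. Within groups, the deviation of this sum had r of 0.17 with *Cdkn1b-202*, 0.34 with *Cdkn1b-201*, 0.36 with *Cdk20*, -0.04 with *Trib1* and -0.38 with the *Cdkn1b-202* share (n = 11). The part of inhibitory neuron RNA in these rows was not tested. The 1 named oligodendrocyte marker, *Mbp*, was at 0.21, and no marker of astrocytes, oligodendrocyte precursors, microglia or endothelial cells had a named row.

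The log2 fold changes of the 4 rows kept their sign under all 21 alternatives tried. They ranged from 0.57 to 0.75 for *Cdkn1b-202*, 0.19 to 0.34 for *Cdkn1b-201*, 0.54 to 0.69 for *Cdk20* and 0.52 to 0.84 for *Trib1*. The difference in the *Cdkn1b-202* share stayed between 5.59 and 6.92 percentage points over 13 alternatives.

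**Figure D5:**
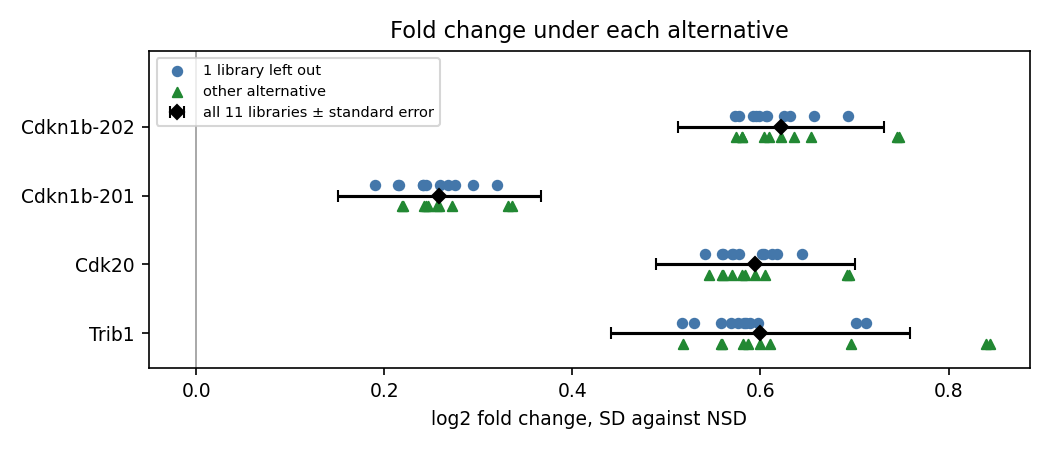
Log2 fold change, SD against NSD (x axis), of the 4 rows. Black diamonds are all 11 libraries with the standard error, blue circles leave out 1 library each, and green triangles are the other alternatives. Every point lies above 0, with Cdkn1b-201 lowest.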

How the data were processed

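RNA bound to HA-tagged ribosomes was sequenced from 5 NSD and 6 SD libraries, grouped and numbered by their labels. The authors trimmed reads with Trimmomatic 0.36, aligned them to mm10 with STAR 2.7.5 and counted them per UCSC transcript with HTSeq-count (intersection-nonempty, reads that fit several features not counted); the strand setting was not given in the sources used here. The deposited values are raw counts. Counts in the tallies of ambiguous reads (37.2% to 52.0% of all reads), reads outside transcripts and other uncounted reads were left out of library sizes.

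Rows that had 1 count or more in 5 or more libraries were fitted with edgeR 4.0.16 (R 4.3.3), with upper-quartile factors, the quasi-likelihood test and Benjamini-Hochberg adjustment at FDR 0.05 over all 29599 rows. Log2 CPM used a prior count of 2. Deviations were compared over all 86400 orders of the libraries within groups (two-sided). The scripts were tested on simulated data. Libraries are the replicates, and nothing given says that each came from a separate batch of mice. The calls at FDR 0.05 therefore rest on the spread between these libraries. The permutation p-values give how often reordering these libraries within groups reached a correlation at least as extreme. No pair of libraries looked like 1 library deposited again: the lowest chi-square per row was 2.66.

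Rows were named where 1 row matched the fold change and other statistics in the study's supplementary lists (2240 rows named, 2 with conflicting names left unnamed); those statistics are not reported. The 4 rows, the lists of genes and the tests were chosen with earlier results of these data known. Genes named are the 4 rows, list genes with a named row, and for each of the 4 rows the 3 named rows of other genes most like it. Gene models are GENCODE vM21 and promoters RefSeq. Figures used matplotlib 3.10.9. The alternatives were TMM, DESeq2 1.42.0, other filters, the likelihood ratio test, leaving out libraries and a block. The microarray and qPCR data were not analysed here. The value of 1 list gene is not reported here.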

Additional observations from a re-analysis of the deposited data

Results flagged for a closer look

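In 18 groups of values tested, 2 held a library far from the others, and chance alone flags about 1 in 20 groups. Both concern NSD 2. Its share of ambiguous reads was 37.2%, below the other 4 NSD libraries, and its share of reads with several alignments was 12.3%, above them. NSD 2 had the lowest level of *Cdkn1b-202*, *Cdkn1b-201* and *Cdk20* among the NSD libraries but not of *Trib1*, and the highest *Cdkn1b-202* share. None of the levels of the 4 rows, nor the share, set a library apart in this way.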

How the results depend on the processing

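The log2 fold changes of the 4 rows kept their direction under all 21 alternatives, and the *Cdkn1b-202* share under the 13 it was computed for (each library left out, the 9 numbered libraries, and without NSD 2 and SD 1). The number of rows called across the table did not. Against 15 with all 11 libraries, 62 were called with TMM factors, 135 with DESeq2 (93 higher and 42 lower in SD, against 13 and 2), 311 with at least 10 counts in every library, 33 with 1 count in 1 library (11 higher and 22 lower), 191 with filterByExpr and 65 with the likelihood ratio test. In the 9 numbered libraries 0 were called by edgeR's quasi-likelihood test, with 894 at an unadjusted p under 0.05. Without NSD 2 and SD 1, chosen after seeing the data, 57 were called. Leaving out 1 library gave from 0 (without SD D, with 1178 at an unadjusted p under 0.05) to 78 (without SD 1). Without SD 2, 7 were higher and 12 lower. Over 21 alternatives the number of the 4 rows called was 0 in 12, 1 in 2, 2 in 4, 3 in 3 and 4 in 0. The cause was not tested.

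Same-numbered libraries did not deviate together (r of -0.59, -0.64 and -0.71 for numbers 2, 3 and 4). These values cannot decide whether the numbers mark pairs, because variation between libraries also followed their quality. Within groups, the main axis of variation had r of 0.86 with the share of reads outside annotated transcripts. A replicate block over the 6 same-numbered libraries gave 6 calls, against 3 in the same libraries without it.

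The effect of scaling and of SD 1 on the co-variation differed between pairs. With no factors, r of *Cdkn1b-202* and *Cdkn1b-201* was 0.52, that of *Cdkn1b-201* and *Cdk20* -0.077 and that of *Cdkn1b-201* and *Trib1* -0.058. With TMM factors r of *Cdkn1b-202* and *Cdk20* was 0.51 (exact permutation p = 0.0867). *Cdkn1b-202* and *Trib1* kept r of 0.77 with TMM factors and 0.71 with no factors, and no longer passed the threshold without SD 1, where *Cdkn1b-202* and *Cdk20* had r of 0.85 (exact permutation p = 0.00556). Without both NSD 2 and SD 1, r of *Cdkn1b-202* and *Cdkn1b-201* was 0.67 (exact permutation p = 0.0705) and that of *Cdkn1b-201* and *Trib1* -0.018, with deviations taken from the means of the libraries left. Leaving out 1 library gave 0.77 (without SD 1) to 0.92 for *Cdkn1b-202* and *Cdkn1b-201*, and -0.036 (without SD 1) to 0.65 for *Cdkn1b-201* and *Trib1*.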
